A study of Mus musculus with 12 samples.

Results

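Oocytes from females in which Dpagt1 was targeted in granulosa cells (AmcKO) were compared with wild type (WT) oocytes across all genes that reached 1 FPKM in any of the 6 AmcKO and WT libraries. FPKM, the unit of all levels given here, scales the fragments of a gene to the length of its transcript and to the size of the library. The rule took 10335 of the 24255 genes in the table. DPAGT1 is the endoplasmic reticulum enzyme that begins N-glycosylation by adding the first sugar to the lipid carrier dolichol phosphate, on which the oligosaccharide is then built before transfer to new proteins. The oocyte and the granulosa cells around it depend on each other: granulosa cells pass metabolites and signals through gap junctions on thin projections that cross the zona pellucida, and the oocyte returns growth factors such as GDF9 and BMP15. Many proteins at this interface, the zona proteins among them, carry N-glycans.

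AmcKO females had the genotype Dpagt1F/F Amhr2CRE/+, that is, 2 floxed copies of Dpagt1 and a Cre recombinase expressed from the Amhr2 locus, which is active in granulosa cells. WT females carried neither by their label. The 2 further groups were GcKO, Dpagt1F/F Gdf9CRE/+, in which Cre is made in the oocyte itself, and MUT, the whole-body D166G point mutant. All females were C57BL/6 by their label and 3 weeks old. The study's methods give C57BL/6J for the D166G, floxed and Gdf9-Cre mice, and name no Amhr2-Cre mice. All females received 5 IU PMSG, a gonadotropin that makes follicles grow, 46 h before oocytes were taken. Each group had 3 libraries of 20 oocytes, amplified by Smart-seq2, which copies full-length cDNA from very few cells. By the design of AmcKO, Cre spares the Dpagt1 of the oocyte, which these data do not check. Oocyte RNA therefore does not show how far the gene was deleted in granulosa cells. WT lacked the floxed allele, the Cre and the deletion together, and the contributions of these to a difference cannot be told apart. The labels do not state that libraries of a group came from separate females, so that p-values measure the spread among these samples, which may be technical. In pooled oocytes, fewer cells holding a transcript and less of it per cell cannot be told apart.

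The gene Dpagt1 was listed at 0 in AmcKO replicates 4, 5 and 6 and in WT replicates 4, 5 and 6. GcKO libraries had 0, 0.366 and 0 FPKM, and MUT libraries had 0.878, 0.408 and 0.985 FPKM. Thus the transcript was at or near the floor in every group and checked none of the labels. Amhr2, which encodes the receptor for anti-Müllerian hormone and whose locus drives Cre, was listed at 0 in all 12 libraries. Zeros in this table may be failed estimates: among 84 genes of cytosolic ribosomal proteins, which every cell uses, 12 had 0 throughout the 6 AmcKO and WT libraries.

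The FPKM sum and the number of genes above 0 differed between the groups. The FPKM values of AmcKO replicates 4, 5 and 6 summed to 967002, 1107925 and 883256, and those of WT replicates 4, 5 and 6 to 1226005, 1167362 and 1225803. The number of genes above 0 was 10399, 10705 and 10921 in AmcKO, against 9494, 9359 and 9622 in WT. The labels number AmcKO and WT libraries 4 to 6 and GcKO and MUT libraries 1 to 3, and the FPKM sums split the same way, at 482314 to 684212 in GcKO and MUT. Whether the numbers mark a batch is not stated. Between AmcKO and WT both measures were without overlap, and an exact permutation test, two-sided, gave p = 0.1 for each, the smallest p that 3 against 3 samples allow. FPKM values hold no counts, but low values rise in steps of 1 fragment. Relative to AmcKO replicate 4, 1 fragment was worth 0.943 in AmcKO replicate 5 and 0.809 in replicate 6, and 1.57, 1.78 and 1.53 in WT replicates 4, 5 and 6. Low transcripts were therefore measured less precisely in WT, and some that are above 0 in AmcKO may lie under the WT floor.

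The libraries carried the RNA of oocytes. Of 18 oocyte markers, 17 passed the filter and 1, Sohlh1, was listed at 0 in all 6. Their summed level was 13920, 15420 and 14190 FPKM in AmcKO and 19510, 18230 and 19980 FPKM in WT, led by Ooep, a subunit of the subcortical maternal complex. Of these markers, 0 were called by limma and 5 had an unadjusted p under 0.05. Granulosa cell markers were few: 9 of 21, namely Amh, Amhr2, Foxl2, Inhba, Inhbb, Hsd17b1, Wt1, Ihh and Nr0b1, were listed at 0 in all 6 libraries. The granulosa list summed to 94.7, 135 and 99.2 FPKM in AmcKO and to 169.5, 179 and 171.5 FPKM in WT, and most of this was Esr2, the estrogen receptor beta. Esr2 was at 78.7, 106 and 79.5 FPKM in AmcKO and at 145, 150.5 and 152 FPKM in WT, without overlap, but it did not pass the test (log2 fold change -0.76, limma adjusted p = 0.125). Cyp19a1, the next most abundant of the list, was at 10.9, 19.2 and 9.97 FPKM in AmcKO and 17.1, 20.1 and 15.1 FPKM in WT, with overlap (log2 fold change -0.41, limma adjusted p = 0.56). Of the granulosa list, 8 genes were tested, 6 with a negative and 2 with a positive log2 fold change, 0 were called by limma and 2 had an unadjusted p under 0.05. The second of these, the transcription factor gene Gata4, was near the floor, at 1.59, 1.2 and 2.32 FPKM in AmcKO and 0, 1.70 and 0 FPKM in WT, with overlap (log2 fold change 0.94, limma adjusted p = 0.268).

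Of the markers of other ovarian cells, 1 cumulus cell gene was well above the floor. Of 12 cumulus cell markers, 9 were listed at 0 in all 6 libraries, and the sums of 136, 102 and 122 FPKM in AmcKO and 131, 111 and 90.6 FPKM in WT came almost wholly from Serpine2, a protease inhibitor, with overlap. Luteal, theca, blood and endothelial lists had 4 of 6, 10 of 12, 7 of 12 and 3 of 6 markers at 0, and their sums were at most 7.50 FPKM in a library. The most abundant markers of these were Scarb1, Dcn, Cd68 and Pecam1. Of the markers in these lists, 0 were called by limma, and 1, Tek of the endothelial list, had an unadjusted p under 0.05. The part of the marker sums in the differences given here was not tested.

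AmcKO and WT oocytes differed at 26 of the 10335 genes (0.252%), called by limma at an adjusted p under 0.05. Of these, 14 were lower (0.135%) and 12 higher (0.116%) in AmcKO, and 24 differed by more than 2-fold on the log2(FPKM + 1) scale, on which all fold changes here are given and which understates those of low transcripts. The 3 AmcKO values lay outside the range of the 3 WT values for all 26, as they did for 1934 genes (18.7%) in all. At an unadjusted p under 0.05 there were 1714 genes, 850 lower and 864 higher. Most differences were small: the log2 fold change was under 0.5 in size for 67.2% of genes and over 1 for 627 genes. Its median was 0.03, and it lay between -0.32 and 0.40 for the middle of the distribution, from the 25th to the 75th percentile. The lower calls had a median level of 20.4 FPKM and the higher calls of 3.95 FPKM, against 3.70 FPKM for all genes tested.

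The number of calls rested on single libraries. It was 14 without AmcKO replicate 4, 151 without AmcKO replicate 5, 16 without AmcKO replicate 6 and 17 without WT replicate 5. Without AmcKO replicate 5, whose FPKM sum was the closest to WT, 24 of the 26 remained. With all libraries scaled to the same FPKM sum, 11 genes were called lower and 22 higher, 20 of them among the 26, and the median of all genes moved from 0.03 to 0.23. The 6 lost at the same sum were Haus8, Tnfrsf17, Aph1c, Ddx18, Hacd3 and Tmem265, while quantile normalization lost Haus8, Aph1c, Slc9b1, Ddx18, AU016765, Hacd3 and Fkbp3. Fitted on the 6 AmcKO and WT libraries alone, 8 genes were called, of which 7 were among the 26, namely Cphx2, Gm19299, Gm20319, 4930405A21Rik, Trip4, Spesp1 and Hist3h2ba. In each of the 6 fits without 1 library, 10 genes were called, namely Gm19299, Gm20319, Myo10, 4930405A21Rik, Cth, BC048502, Cog8, Dapk2, Trip4 and Spesp1. Of these, Gm19299, 4930405A21Rik, Trip4 and Spesp1 were called in all 16 alternative fits. With the label number as a block, Gm20319, Myo10, Cth, BC048502, Cog8 and Dapk2 were not called, with a limma adjusted p of up to 0.234. A group listed at 0 throughout adds no spread to the pooled estimate of the main fit. The p-values of genes with such groups may therefore be too small.

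**Figure D1:**
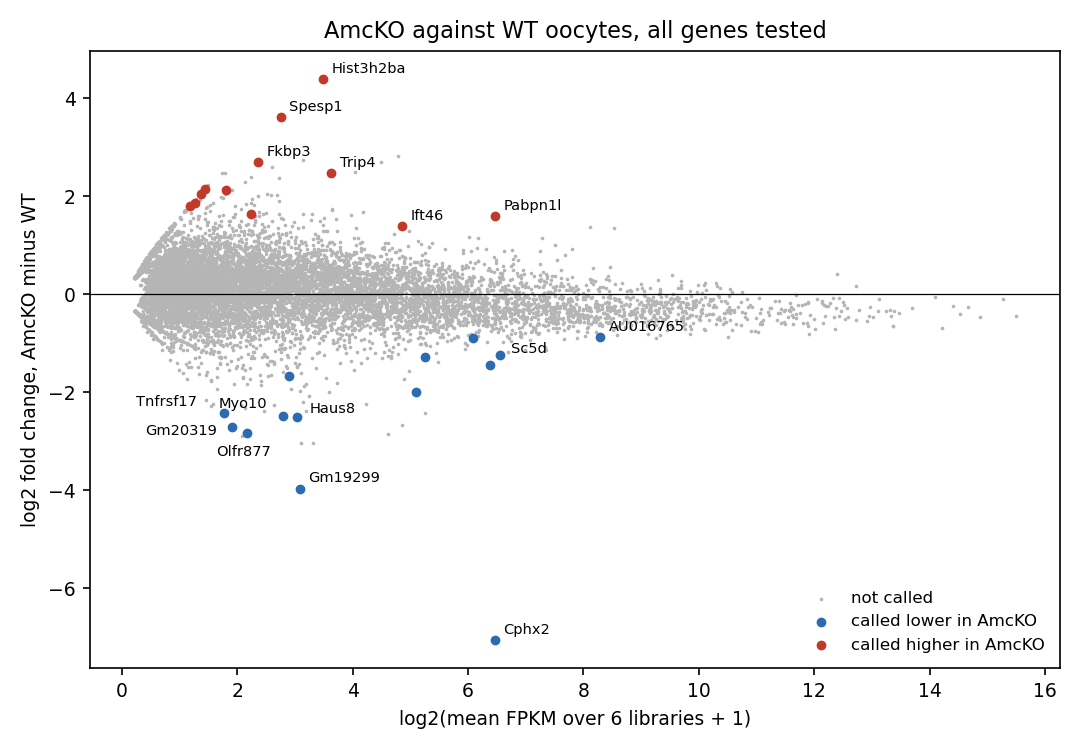
Log2 fold change between AmcKO and WT on the log2(FPKM + 1) scale against the log2 mean level over the 6 libraries, 1 point per gene tested. The 14 genes called lower are blue and the 12 called higher are red; for genes listed at 0 in 1 group the height is the fitted difference and not a fold. Among the most abundant genes, on the right, most points lie a little below 0.

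The called genes were unevenly spread over the chromosomes. Chromosome 9, which carries Dpagt1, held 9 of them among 579 genes tested (1.55%), 4 lower and 5 higher, against 17 of 9756 (0.174%) on the other chromosomes. The next highest shares were 0.575% on chromosome 16, 0.533% on chromosome 8 and 0.505% on chromosome 15. The 9 genes began between 37854269 and 67133560, a stretch of 29.3 Mb, which was delimited after their values were seen. In it, 170 genes were tested, 9 were called and 49 had an unadjusted p under 0.05 (28.8%, against 16.6% of all genes). The median log2 fold change was -0.01 in the stretch and 0.01 on the chromosome, so that lower and higher genes were mixed. The count on chromosome 9 was 18 without AmcKO replicate 5, 5 without AmcKO replicate 4, 4 without AmcKO replicate 6 and 5 without WT replicate 6. It was 3 in a fit of the 6 AmcKO and WT libraries alone.

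**Figure D2:**
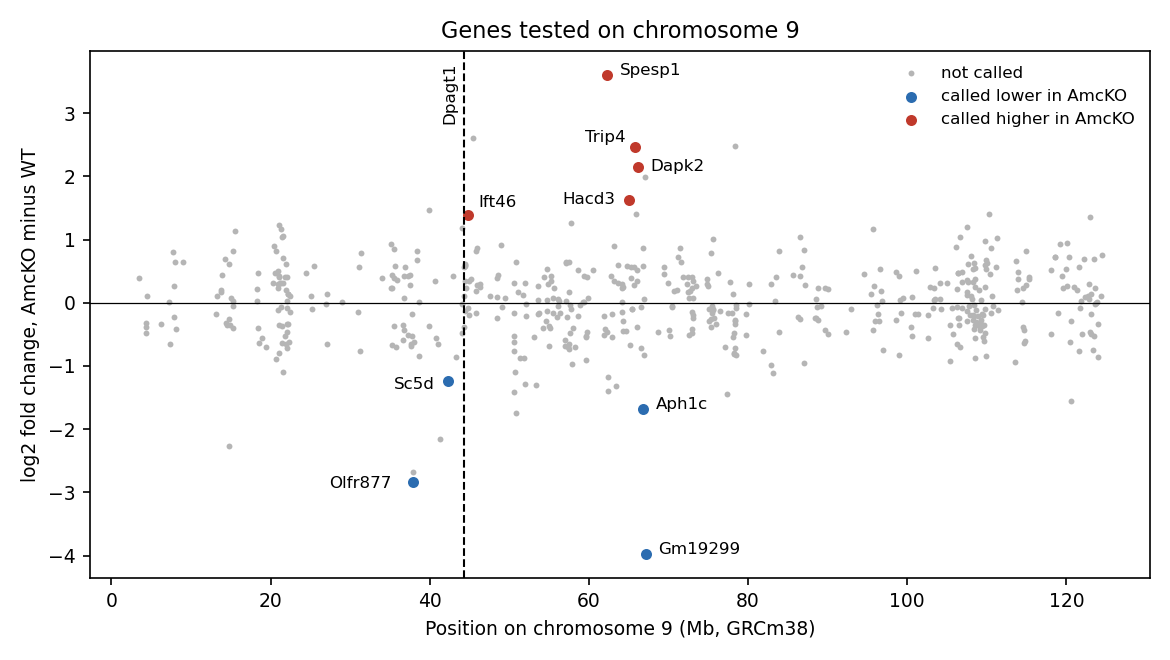
Log2 fold change between AmcKO and WT of the genes tested on chromosome 9 with an annotated position, by start in GRCm38. The dashed line marks Dpagt1, and the 4 genes called lower (blue) and 5 called higher (red) lie between 37.9 and 67.1 Mb on both sides of it; for genes listed at 0 in 1 group the height is the fitted difference and not a fold.

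Among the 5 higher genes of chromosome 9, Spesp1 and Trip4 had the smallest adjusted p. Spesp1, which encodes a protein of the sperm equatorial segment, lies 17.9 Mb from Dpagt1 at chr9:62270729-62282208 on the reverse strand. It was at 10.2, 8.59 and 15.9 FPKM in AmcKO replicates 4, 5 and 6 and listed at 0 in all 3 WT libraries (limma adjusted p = 1.2e-04). It was at 8.66, 10.1 and 5.83 FPKM in GcKO and listed at 0 in all 3 MUT libraries. Thus every library of the floxed-allele groups was above every library of the others. AmcKO differed from MUT (limma adjusted p = 3.6e-05) and was not called against GcKO (log2 fold change 0.44, standard error 0.30, limma adjusted p = 0.478).

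Trip4 encodes a subunit of a transcriptional coactivator complex and lies at chr9:65828930-65908794. It was at 15.0, 25.7 and 19.5 FPKM in AmcKO and at 2.88, 2.08 and 3.31 FPKM in WT, without overlap (20.1 ± 5.39 against 2.76 ± 0.623 FPKM, SD, n = 3). The log2 fold change was 2.47, with a standard error of 0.26 (limma adjusted p = 4.8e-04). GcKO was at 24.0, 17.2 and 18.8 FPKM and MUT at 4.93, 4.10 and 6.31 FPKM, so that AmcKO was not called against GcKO (log2 fold change -0.02, limma adjusted p = 0.998) and was above MUT (1.77, limma adjusted p = 0.00135). The gene overlaps another on the opposite strand, Pclaf, and reads of both cannot be told apart without strand.

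Dapk2, a death-associated protein kinase, was at 3.32, 3.77 and 3.23 FPKM in AmcKO and listed at 0 in all 3 WT libraries (limma adjusted p = 0.00774). It was above 0 in every GcKO and MUT library too, from 1.91 to 6.38 FPKM, and was called against neither. Hacd3, an enzyme of very long-chain fatty acid elongation, was at 5.66, 4.58 and 8.17 FPKM in AmcKO and 1.27, 2.15 and 0.614 FPKM in WT (log2 fold change 1.63, standard error 0.31, limma adjusted p = 0.0477). The groups did not overlap, and the MUT values of 2.04, 1.62 and 1.96 FPKM were within the range of WT. Ift46, a component of intraflagellar transport, is the called gene closest to Dpagt1, at 0.442 Mb. It was at 38.9, 41.0 and 41.2 FPKM in AmcKO and 11.7, 22.4 and 12.4 FPKM in WT, without overlap (log2 fold change 1.38, standard error 0.23, limma adjusted p = 0.0259).

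The 4 lower genes of chromosome 9 were led by Gm19299, a predicted gene at chr9:67133560-67213918. It was listed at 0 in AmcKO replicates 4, 5 and 6 and at 13.4, 12.1 and 19.5 FPKM in WT (limma adjusted p = 1.2e-04). GcKO was at 0, 1.03 and 1.72 FPKM and MUT at 19.2, 14.4 and 20.9 FPKM, so that the AmcKO and GcKO libraries were all below those of WT and MUT. Olfr877, an olfactory receptor gene, was listed at 0 in all 3 AmcKO libraries and at 11.7, 2.65 and 6.78 FPKM in WT (limma adjusted p = 0.0112). It was at 0.966, 0 and 0 FPKM in GcKO and at 3.27, 3.08 and 2.46 FPKM in MUT.

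Aph1c, which encodes a subunit of gamma-secretase, was at 2.84, 3.82 and 1.31 FPKM in AmcKO and 9.23, 11.9 and 9.59 FPKM in WT (log2 fold change -1.68, standard error 0.31, limma adjusted p = 0.0412). Sc5d, the sterol desaturase of a late step of cholesterol synthesis, lies 2.07 Mb from Dpagt1. It was at 56.5, 63.4 and 46.2 FPKM in AmcKO and 148, 122 and 123.2 FPKM in WT, without overlap (55.3 ± 8.67 against 131 ± 14.8 FPKM, SD, n = 3; log2 fold change -1.24, limma adjusted p = 0.0125). GcKO was lowest for Sc5d, at 29.8, 40.3 and 44.4 FPKM, and MUT lay between, at 88.7, 68.7 and 77.8 FPKM. Neither of these groups was called against AmcKO.

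Taken by count, 7 of the 9 genes of chromosome 9, and 12 of all 26, were called between AmcKO and MUT. Between AmcKO and GcKO, 0 of the 9 were called by limma, with 2 at an unadjusted p under 0.05, and 2 of all 26 were called. These comparisons share the 3 AmcKO libraries by which the genes were called against WT, so that their counts are no independent evidence. Over all genes tested, 743 (7.19%) were called between AmcKO and MUT and 627 (6.07%) between AmcKO and GcKO. The 2 that were not called against MUT were Sc5d and Dapk2. Of the 9, Spesp1, Trip4, Gm19299 and Dapk2 were called in every fit without 1 library. Olfr877 was lost without AmcKO replicate 4 or 6 or WT replicate 6, with a limma adjusted p of up to 0.0882. Ift46 and Hacd3 were lost without AmcKO replicate 4 or 6 or WT replicate 4 or 6, with a limma adjusted p of up to 0.149 and 0.161. Sc5d and Aph1c were lost without any 1 library but AmcKO replicate 5, with a limma adjusted p of up to 0.0882 and 0.161.

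Neighbours of the targeted gene were called at a higher share than all genes, though in counts of 1 and 2. Windows and chromosomes are by the positions that the deposited table gives. Within 1 Mb of Dpagt1, 17 genes were tested, 1 was called, Ift46 (5.88%, against 0.252% of all genes), and 4 had an unadjusted p under 0.05 (23.5%, against 16.6%), with a median log2 fold change of 0.34. Within 5 Mb, 41 genes were tested, Sc5d and Ift46 were called (4.88%), 13 had an unadjusted p under 0.05 (31.7%), and values ran from -2.16 to 2.60 around a median of 0.25. Without AmcKO replicate 6 neither was called (limma adjusted p = 0.149 for Ift46 and 0.0882 for Sc5d). Within 1 Mb of Amhr2 on chromosome 15, 32 genes were tested with a median of 0.11, 1 was called, BC048502 (3.13%), at a distance of 0.994 Mb, and 5 had an unadjusted p under 0.05 (15.6%). Within 5 Mb of Amhr2 the count was 1 of 94 (1.06%), and 17 genes had an unadjusted p under 0.05 (18.1%).

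BC048502 was the 1 gene by which AmcKO was called apart from WT, GcKO and MUT with the same sign (0.00968%). Its position in the table, chr15:103438957-103448469 on the reverse strand, is that of Gtsf2, a paralog of a gametocyte factor. It was at 4.45, 2.13 and 1.83 FPKM in AmcKO replicates 4, 5 and 6 and was listed at 0 in the 9 libraries of the other groups. The limma adjusted p was 0.0196 against WT, 0.00296 against GcKO and 0.00223 against MUT. BC048502 passed the filter through AmcKO alone, at a level near the floor. The 3 contrasts rest on the same 3 AmcKO values, so that they are no independent support for one another. The call against WT was kept in each fit without 1 library, with a limma adjusted p of up to 0.0342, and was lost where the 6 AmcKO and WT libraries were fitted alone (limma adjusted p = 0.142) and with the label number as a block (limma adjusted p = 0.234). The number of genes apart from all 3 groups was 4 without AmcKO replicate 4, 11 without AmcKO replicate 5 and 3 without AmcKO replicate 6, and BC048502 was among them each time.

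Of the 10 lower genes on other chromosomes, Myo10 belongs to the list of receptors and junctions toward granulosa cells. It encodes a myosin of filopodia and lies at chr15:25622525-25813673. Myo10 was at 0.253, 1.55 and 1.64 FPKM in AmcKO and at 9.16, 14.6 and 8.32 FPKM in WT (1.15 ± 0.774 against 10.7 ± 3.43 FPKM, SD, n = 3). All 3 AmcKO values were below the lowest WT value, with a log2 fold change of -2.49, a standard error of 0.33 and a limma adjusted p of 0.0045. GcKO was also low, at 0.980, 0.533 and 0.887 FPKM (limma adjusted p = 0.821 against AmcKO), and MUT was at 10.5, 10.9 and 9.60 FPKM (limma adjusted p = 8.6e-04). The call was lost with the 6 AmcKO and WT libraries alone (limma adjusted p = 0.0722) and with the label number as a block (limma adjusted p = 0.105), the highest value of any alternative, the lowest being 0.00318 after cyclic loess. The gene shares its chromosome with Amhr2, which starts at 102445367.

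Gm20319, a predicted gene antisense to Il1rap on chromosome 16, was at 4.97, 6.32 and 5.32 FPKM in WT and listed at 0 in the 9 other libraries (limma adjusted p = 2.5e-04 between AmcKO and WT). It was the WT libraries that stood apart. The transcript 4930405A21Rik, antisense within Dlgap4 on chromosome 2, showed the same at a higher level. It was at 11.1, 15.9 and 11.3 FPKM in AmcKO and 64.5, 51.0 and 45.6 FPKM in WT, with GcKO from 12.5 to 25 FPKM and MUT from 10.1 to 11.9 FPKM. The log2 fold change was -1.99, with a standard error of 0.26 (limma adjusted p = 0.00392). For both genes, the strand of reads is not stated, and signal of the overlapping gene cannot be told apart.

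Cth encodes cystathionine gamma-lyase, which makes cysteine in the transsulfuration pathway. It was at 20.2, 23.4 and 20.0 FPKM in AmcKO and 46.7, 55.1 and 58.0 FPKM in WT, without overlap (21.2 ± 1.89 against 53.3 ± 5.87 FPKM, SD, n = 3; log2 fold change -1.29, standard error 0.17, limma adjusted p = 0.00392). GcKO was at 20.4, 21.1 and 24.1 FPKM and MUT at 30.4, 26.5 and 29.9 FPKM, and AmcKO was called against neither. AU016765 was the most abundant called gene, at 206, 249.6 and 205 FPKM in AmcKO and 431, 370.5 and 409.9 FPKM in WT (log2 fold change -0.87, limma adjusted p = 0.0379). Slc9b1, a sodium and proton exchanger, was at 38.3, 67.1 and 31.0 FPKM in AmcKO and between 112 and 124 FPKM in WT (log2 fold change -1.45, limma adjusted p = 0.0318). Ddx18, an RNA helicase of ribosome assembly, was at 46.2, 50.3 and 42.3 FPKM in AmcKO and 73.1, 89.8 and 101 FPKM in WT (log2 fold change -0.91, limma adjusted p = 0.0477). In all 3 AmcKO and WT did not overlap, and every GcKO and MUT library was also below the lowest WT value.

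Haus8, a subunit of the augmin complex that branches spindle microtubules, was at 0, 1.35 and 4.62 FPKM in AmcKO and 13.4, 11.3 and 12.9 FPKM in WT (log2 fold change -2.51, standard error 0.48, limma adjusted p = 0.0477). It overlaps Myo9b on the opposite strand. Tnfrsf17, a receptor of the tumor necrosis factor family, was listed at 0 in all 3 AmcKO libraries and at 2.87, 3.25 and 8.28 FPKM in WT (limma adjusted p = 0.0282). Cphx2, a homeobox gene of oocytes and early embryos, had the widest gap, at 0.164, 0.151 and 0.106 FPKM in AmcKO and 283.5, 169 and 71.3 FPKM in WT (log2 fold change -7.06, standard error 1.18, limma adjusted p = 0.0252). This value is uncertain, because the locus holds near-identical copies among which fragments can be split, and because 1 of the 3 GcKO libraries was at 0.0739 FPKM while the others were at 71.9 and 83.8 FPKM. Cphx2 was called in 0 of the 6 fits without 1 library by limma, with an adjusted p from 0.0528 without AmcKO replicate 5 to 0.161 without AmcKO replicate 6. Of the fits without 1 library, Tnfrsf17, Slc9b1 and AU016765 were called only in that without AmcKO replicate 5, with a limma adjusted p of up to 0.161 in the others. Haus8 was called only without AmcKO replicate 6, with a limma adjusted p of up to 0.136 in the others. Ddx18 was lost without AmcKO replicate 4 or 6 or WT replicate 5 or 6, with a limma adjusted p of up to 0.161.

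On other chromosomes, 7 genes were higher. Pabpn1l, an embryonic poly(A)-binding protein gene, was the most abundant of them, at 162, 72.9 and 168 FPKM in AmcKO and 48.0, 44.2 and 32.6 FPKM in WT (134 ± 53.1 against 41.6 ± 8.02 FPKM, SD, n = 3). All AmcKO values were above those of WT, with AmcKO replicate 5 closest to them (log2 fold change 1.59, standard error 0.29, limma adjusted p = 0.0380), and GcKO and MUT, from 67.6 to 124 FPKM, were above WT as well. Hist3h2ba, a histone H2B gene, was at 16.4, 26.8 and 18.4 FPKM in AmcKO and listed at 0 in all 3 WT libraries (limma adjusted p = 0.0125). It also differed from GcKO, which was at 0, 3.23 and 10.8 FPKM (limma adjusted p = 0.0425), and not by the test from MUT, at 3.8, 3.83 and 13.3 FPKM (limma adjusted p = 0.186).

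Cog8, a subunit of a Golgi tethering complex that glycosylation enzymes depend on, was at 3.81, 3.09 and 2.65 FPKM in AmcKO and listed at 0 in all 3 WT libraries (limma adjusted p = 0.00516). GcKO and MUT were at 1.76 to 2.91 FPKM, so that WT stood apart here too, and the gene overlaps Pdf on the same strand. Tmem265 was at 2.11, 2.01 and 3.44 FPKM in AmcKO and listed at 0 in WT (limma adjusted p = 0.0324), with GcKO and MUT from 2.12 to 7.10 FPKM. Enoph1, an enzyme of methionine salvage, was at 4.57, 3.11 and 6.35 FPKM in AmcKO and 1.02, 0 and 0 FPKM in WT (log2 fold change 2.13, limma adjusted p = 0.0282), with GcKO and MUT from 2.36 to 7.81 FPKM. Fkbp3, a prolyl isomerase gene overlapping Prpf39, was at 10.9, 5.73 and 7.02 FPKM in AmcKO and 0.0535, 1.25 and 0 FPKM in WT (log2 fold change 2.69, limma adjusted p = 0.0324), with GcKO and MUT from 3.86 to 17.8 FPKM. For these genes too, every WT library was below every library of the other groups. At these levels WT libraries, in which 1 fragment weighs most, were the least precise. Pabpn1l, Hist3h2ba, Tmem265 and Fkbp3 were called only in the fit without AmcKO replicate 5 among those without 1 library, with a limma adjusted p of up to 0.195 in the others. Enoph1 was lost without AmcKO replicate 4 or 6 or WT replicate 5 or 6, with a limma adjusted p of up to 0.161.

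**Figure D3:**
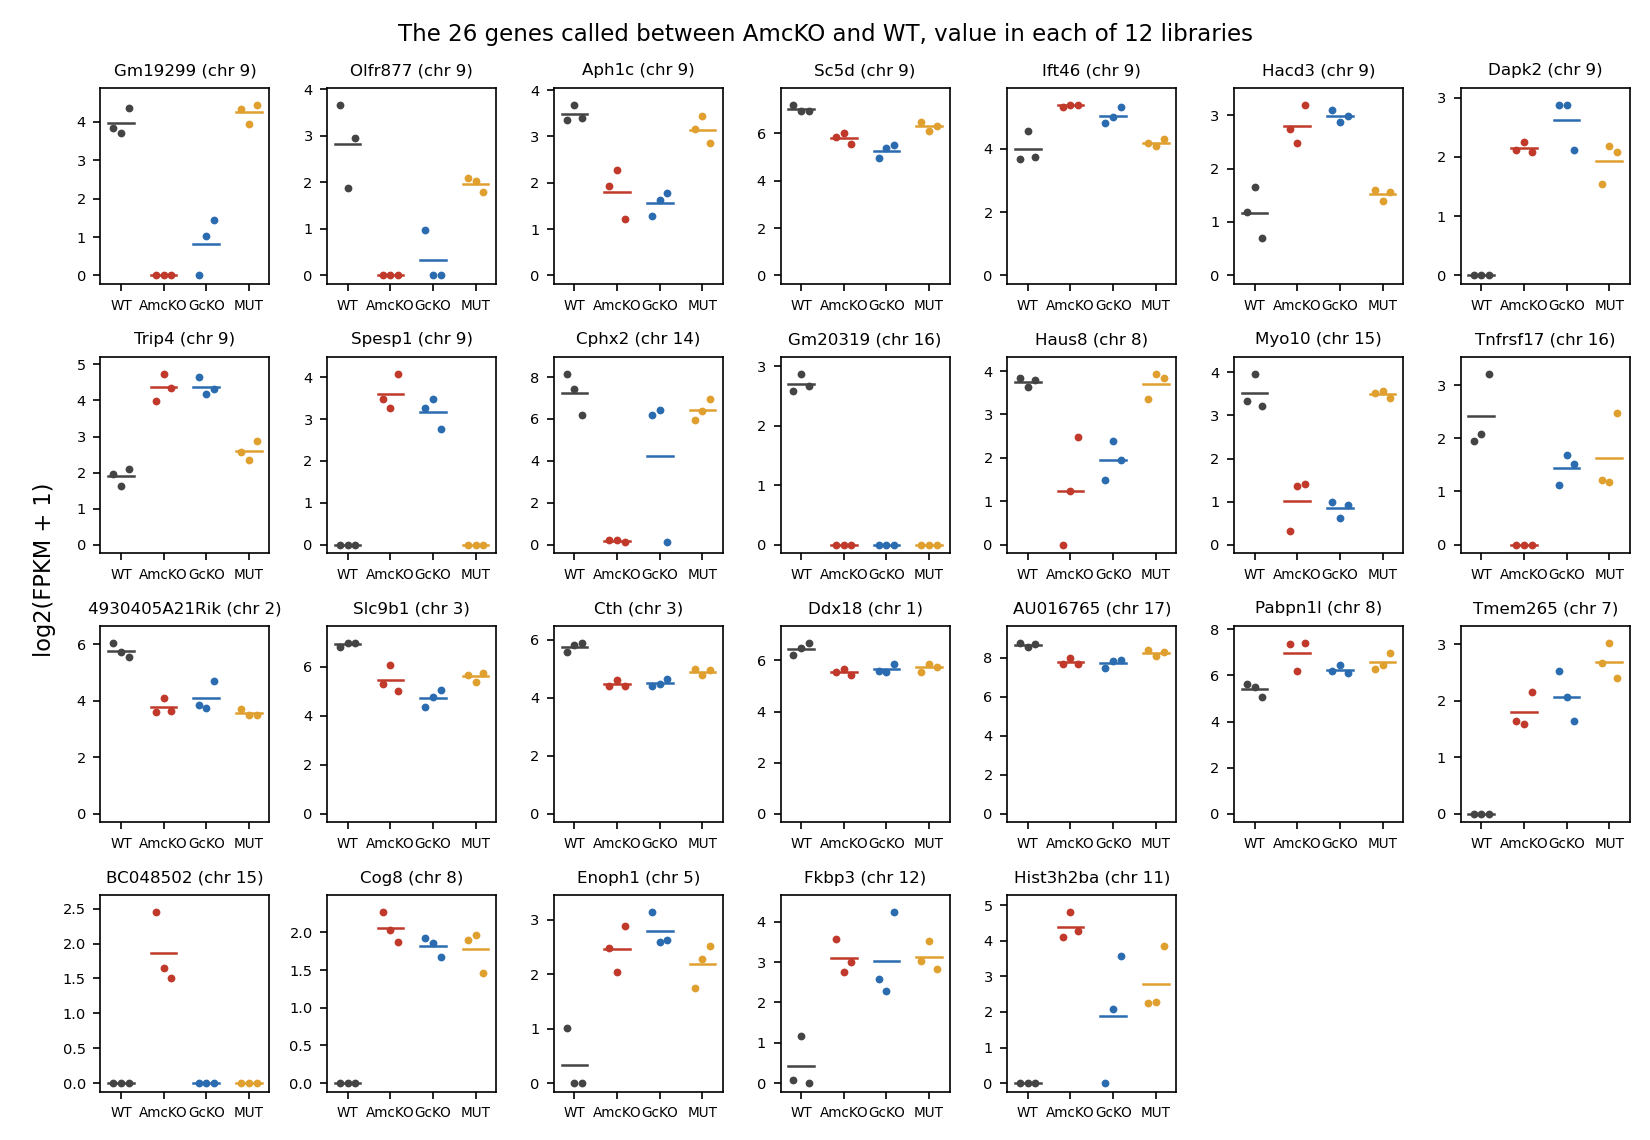
Level of each of the 26 called genes on the log2(FPKM + 1) scale in the 3 libraries of WT, AmcKO, GcKO and MUT, with a line at the group mean of these values. The 9 genes of chromosome 9 come first. In all 26 panels the AmcKO points lie wholly above or wholly below the WT points, and for BC048502 all 9 points of the other groups are at 0.

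Promoter sequences were found in RefSeq (GRCm38.p6) for 23 of the 26 called genes, as 250 bases before to 50 after the start. They were searched on both strands for the TATA box (TATAAA), which 13.6% of 32851 mouse promoters hold, and the CCAAT box, held by 37.4%. The GC box (GGGCGG) was held by 35.7% and the E-box (CANNTG) by 72.3%. Matches stand in capitals below and only describe the letters. The 3 shown belong to genes that were listed at 0 in every library of WT or AmcKO and above 0 in every library of the other, and whose call held without any 1 library. Gm20319, Cog8 and Dapk2 met the same rule and are not shown. The promoter of Spesp1, at chr9:62282130-62282429 on the reverse strand, holds 1 GGGCGG match. That of Gm19299, at chr9:67133311-67133610 on the forward strand, holds 1 TATAAA and 4 CANNTG matches. The promoter of BC048502, at chr15:103448410-103448709 on the reverse strand, holds 1 CANNTG match.
Spesp1: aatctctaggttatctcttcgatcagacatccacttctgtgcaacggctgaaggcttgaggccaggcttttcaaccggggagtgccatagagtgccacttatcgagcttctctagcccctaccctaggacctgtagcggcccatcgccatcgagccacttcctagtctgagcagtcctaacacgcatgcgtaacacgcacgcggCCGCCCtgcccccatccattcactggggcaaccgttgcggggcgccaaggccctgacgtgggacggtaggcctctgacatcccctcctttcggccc
Gm19299: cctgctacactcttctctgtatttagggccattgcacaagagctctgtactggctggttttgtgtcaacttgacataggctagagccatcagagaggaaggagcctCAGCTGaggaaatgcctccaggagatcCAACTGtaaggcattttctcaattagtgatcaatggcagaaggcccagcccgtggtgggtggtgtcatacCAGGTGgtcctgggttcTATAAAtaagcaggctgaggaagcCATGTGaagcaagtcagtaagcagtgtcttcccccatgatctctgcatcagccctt
BC048502: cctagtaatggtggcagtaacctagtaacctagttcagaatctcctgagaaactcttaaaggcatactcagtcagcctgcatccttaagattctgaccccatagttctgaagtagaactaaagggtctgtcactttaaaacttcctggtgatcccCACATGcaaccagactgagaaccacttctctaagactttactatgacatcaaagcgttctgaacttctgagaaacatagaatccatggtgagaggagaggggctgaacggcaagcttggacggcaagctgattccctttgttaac

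The lists of genes that follow are to be read against all genes tested, of which 0.252% were called and 16.6% had an unadjusted p under 0.05. Over all lists, 1036 genes were tested, 4 were called (0.386%) and 202 had an unadjusted p under 0.05 (19.5%).

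Of 23 genes of dolichol-linked N-glycan assembly, the pathway that DPAGT1 begins, 19 were tested, 0 were called by limma, and 2 had an unadjusted p under 0.05 (10.5%). Their median log2 fold change was -0.01, against 0.03 for all genes. It was 0.19 at the same sum (0.23 for all genes), 0.00 after quantile normalization (0.03 for all genes) and -0.12 after cyclic loess (-0.0065 for all genes). The lowest p was that of Alg9, a mannosyltransferase gene on chromosome 9, named after its values were seen. Alg9 was at 1.22, 0.770 and 1.32 FPKM in AmcKO and 4.47, 5.06 and 9.30 FPKM in WT, without overlap (log2 fold change -1.74, limma adjusted p = 0.0590). It was called after cyclic loess (limma adjusted p = 0.0332) and with a pseudocount of 0.1, and its adjusted p ran up to 0.210 with the label number as a block. The most abundant members, Dpm2 and Alg13, were not called. Dpm2, a subunit that makes the mannose donor, was at 138.5, 184 and 161 FPKM in AmcKO and 168.5, 172.5 and 159.5 FPKM in WT (log2 fold change -0.06, which was 0.24 at the same sum, 0.15 after quantile normalization and 0.13 after cyclic loess; limma adjusted p = 0.888), and the groups overlapped. Alg13, which with a partner adds the second sugar, was at 121, 134 and 109 FPKM against 159, 166 and 147 FPKM (log2 fold change -0.37, limma adjusted p = 0.283), without overlap.

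Sugar donor synthesis and the later steps of the pathway were also without calls. Of 12 oligosaccharyltransferase genes, which move the glycan onto proteins, 12 were tested, 0 were called by limma and 1 had an unadjusted p under 0.05. The median log2 fold change was -0.22, and it was 0.03 at the same sum and -0.06 after quantile and after loess normalization. For sugar donor synthesis 7 genes were tested, with 0 called by limma, 0 at an unadjusted p under 0.05 and a median of 0.09, which became -0.03 after quantile normalization and -0.07 after cyclic loess. The 15 genes tested of N-glycan trimming and lectin-assisted folding had a median of 0.40, which stayed positive under each scaling. None of them passed limma's threshold (0 called, 2 at an unadjusted p under 0.05). Canx, the chaperone calnexin and the most abundant of them, was at 467.5, 450.1 and 402 FPKM in AmcKO and 400.4, 382 and 338 FPKM in WT, without overlap (log2 fold change 0.24, limma adjusted p = 0.465).

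The lists tested of genes that respond to stress of the endoplasmic reticulum held no call. They do not hold every such gene, and Cth, called lower, was on neither. Of 19 chaperones and targets of the unfolded protein response tested, 0 were called by limma and 2 had an unadjusted p under 0.05, with a median log2 fold change of 0.14. Hspa5, the chaperone BiP, was at 38.3, 39.5 and 34.5 FPKM in AmcKO and 28.9, 35.9 and 45.5 FPKM in WT, with overlap (log2 fold change 0.05, limma adjusted p = 0.921). Of 12 ATF4 target genes tested, 0 were called by limma and 0 had an unadjusted p under 0.05, with a median of 0.12. Ddit3, a transcription factor of the stress response, was at 299, 418 and 249 FPKM in AmcKO and 316, 353 and 501 FPKM in WT (log2 fold change -0.28, or 0.016 at the same sum, limma adjusted p = 0.562), with overlap. Coats of the COPI and COPII vesicles had a median of 0.32 over 21 genes, positive under each scaling, with 0 called by limma and 3 at an unadjusted p under 0.05. GPI anchor synthesis had a median of -0.09 over 15 genes, which was 0.13 at the same sum, -0.16 after quantile normalization and -0.22 after cyclic loess, with 0 called by limma and 2 at an unadjusted p under 0.05.

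On the oocyte's side of the contact with granulosa cells, zona genes were not called. Of the zona pellucida and egg surface list, 11 genes were tested, 0 were called by limma and 5 had an unadjusted p under 0.05. The zona gene Zp1 was at 37.9, 31.8 and 52.1 FPKM in AmcKO and 34.8, 22.3 and 31.9 FPKM in WT (log2 fold change 0.44, limma adjusted p = 0.447), with overlap. Zp2 was at 149.5, 141 and 125 FPKM against 191, 163 and 171.5 FPKM (log2 fold change -0.34, limma adjusted p = 0.418), without overlap. Zp3, which forms filaments with Zp2, was at 952, 639 and 952 FPKM against 674, 599 and 627 FPKM (log2 fold change 0.40, limma adjusted p = 0.281), with overlap. The sign of Zp2 thus differed from that of Zp1 and Zp3, also under each scaling. The list's median was -0.34, and it was -0.04 with each of the same-sum, quantile and loess scalings.

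The growth factors by which the oocyte acts on granulosa cells were not called. Gdf9 was at 2487, 2121 and 3113 FPKM in AmcKO and 3404, 2934 and 3243 FPKM in WT (log2 fold change -0.33, standard error 0.24, limma adjusted p = 0.505), and the sign turned after quantile and loess normalization (0.08 and 0.05). Bmp15 was at 1410.0, 1138 and 1489 FPKM against 1823, 1443 and 1316 FPKM (log2 fold change -0.18, standard error 0.18, limma adjusted p = 0.624), and the sign turned at the same sum and after quantile and loess normalization (0.12, 0.16 and 0.17). Both overlapped between the groups. Of their list, 7 genes were tested, 0 were called by limma and 1 had an unadjusted p under 0.05, with a median of -0.10 that turned positive under the same-sum, quantile and loess scalings (0.20, 0.16 and 0.17).

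Receptors and junction genes included 1 call of 18 tested, Myo10, and 3 genes in all at an unadjusted p under 0.05 (16.7%, against 16.6% of all genes), with a median log2 fold change of 0.23. Kit, the receptor for the granulosa cell ligand KITL, was at 19.5, 17.4 and 19.8 FPKM in AmcKO and 12.4, 18 and 18 FPKM in WT (log2 fold change 0.23, limma adjusted p = 0.609). Gja4, the connexin of the gap junctions between oocyte and granulosa cells, was at 137, 76.4 and 147 FPKM in AmcKO and 97.2, 114 and 71.7 FPKM in WT (log2 fold change 0.32, limma adjusted p = 0.559). Both overlapped between the groups. For genes of cAMP and meiotic arrest, which granulosa cells help to maintain, 20 were tested, 0 were called by limma and 3 had an unadjusted p under 0.05, with a median of 0.10.

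Metabolic genes that granulosa cells complement in the oocyte were tested as 3 lists. Cholesterol synthesis and uptake had 1 call of 22 genes, Sc5d, with 3 genes in all at an unadjusted p under 0.05 and a median log2 fold change of 0.00, which was 0.21 at the same sum, 0.14 after quantile normalization and 0.09 after cyclic loess. Glycolysis and pyruvate use had 0 calls of 19 by limma, 4 genes at an unadjusted p under 0.05 and a median of -0.17, which was 0.06 at the same sum, -0.09 after quantile normalization and -0.12 after cyclic loess. Amino acid transport had 6 genes tested, 0 called by limma and 1 at an unadjusted p under 0.05, with a median of 0.16. Ldhb, a lactate dehydrogenase subunit and the most abundant of the glycolysis list, was at 4303, 4740.0 and 4206 FPKM in AmcKO and 5041, 4883 and 5653 FPKM in WT (log2 fold change -0.23, limma adjusted p = 0.493), without overlap, and its sign turned at the same sum and after quantile and loess normalization (0.06, 0.06 and 0.16).

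The lists of maternal and meiotic genes held no call. The called genes Pabpn1l, Haus8 and Cphx2, described above, were not members of these lists. Over 26 maternal effect genes tested, 0 were called by limma and 6 had an unadjusted p under 0.05, with a median log2 fold change of -0.13 that became 0.16 at the same sum, 0.07 after quantile normalization and 0.08 after cyclic loess. Ooep was at 3617, 5019 and 3368 FPKM in AmcKO and 6313, 6012 and 7181 FPKM in WT, without overlap, and was not called (log2 fold change -0.72, standard error 0.18, limma adjusted p = 0.1), though it was without AmcKO replicate 5 (limma adjusted p = 0.0381). Of 16 oocyte transcription factors, 0 were called by limma and 6 had an unadjusted p under 0.05, with a median of -0.03 that turned positive under the same-sum, quantile and loess scalings. The 31 genes of maternal mRNA storage and clearance had 0 calls by limma, 5 at an unadjusted p under 0.05 and a median of 0.16. Btg4, an adaptor of maternal mRNA decay, was at 7154, 7545 and 6643 FPKM in AmcKO and 6876, 5972 and 6127 FPKM in WT, with overlap (log2 fold change 0.17, limma adjusted p = 0.596), and was called at the same sum (0.47, limma adjusted p = 0.0229) and after cyclic loess (0.57, limma adjusted p = 0.0175). The 24 genes of securin, cohesin and the checkpoint had 0 calls by limma, 6 at an unadjusted p under 0.05 and a median of 0.08. Of 26 genes of the Nlrp, Oog, Obox and related oocyte families, 0 were called by limma and 7, all with a negative fold change, had an unadjusted p under 0.05 (26.9%), with a median of -0.34 that was -0.04 at the same sum, -0.06 after quantile normalization and -0.05 after cyclic loess.

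The abundant families of cell upkeep lay below 0 by their median as deposited, and by how much depended on the scaling and the AmcKO library. Over the AmcKO libraries the SD of this median was 0.16 for proteasome subunits, 0.27 for cytosolic and 0.20 for mitochondrial ribosomal proteins. It was 0.19 for oxidative phosphorylation subunits and 0.31 for spliceosomal Lsm and Sm genes. The median log2 fold change was -0.25 for 41 proteasome subunits, -0.22 for 70 cytosolic ribosomal proteins and -0.22 for 76 mitochondrial ones, and these became 0.04, 0.06 and 0.08 at the same sum, where the median of all genes was 0.23. They were -0.03, -0.09 and -0.09 after quantile normalization and -0.09, -0.11 and -0.13 after cyclic loess. For 77 oxidative phosphorylation subunits it was -0.16, and 0.13 at the same sum, 0.02 after quantile normalization and 0.01 after cyclic loess. None of these 4 lists held a call by limma, with 15, 21, 17 and 22 genes at an unadjusted p under 0.05 (36.6%, 30%, 22.4% and 28.6%). Spliceosomal Lsm and Sm genes were negative in 20 of 22, with a median of -0.32 that was -0.02 at the same sum, -0.17 after quantile normalization and -0.18 after cyclic loess, 0 called by limma and 4 at an unadjusted p under 0.05. Translation initiation factors had a median of 0.10 over 49 genes, with 0 called by limma and 8 at an unadjusted p under 0.05.

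A lower level of abundant genes was seen across the table. Genes at 1000 FPKM or more (177) had a median log2 fold change of -0.34, those from 100 to 1000 FPKM (781) of -0.28 and those from 1 to 10 FPKM (4689) of 0.14. At the same sum these were -0.05, 0.01 and 0.32, in the same order around an all-gene median of 0.23. After cyclic loess, which levels such trends by construction, they were 0.03, -0.07 and 0.01. The FPKM sum was 986100 ± 113500 in AmcKO and 1206390 ± 33800 in WT (SD, n = 3), and the part of this in the trend was not tested. Precision followed abundance: the median standard error was 0.37 for genes from 1 to 10 FPKM and 0.18 at 1000 FPKM or more. Among the 177 most abundant genes, 0 were called by limma and 73 had an unadjusted p under 0.05 (41.2%, against 16.6% of all genes), a count that was 52 at the same sum, 44 after quantile normalization and 60 after cyclic loess.

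The remaining lists held few calls. Replication-dependent histone genes had 1 call of 46, Hist3h2ba, 14 genes at an unadjusted p under 0.05 and a median log2 fold change of -0.35, negative under each scaling. Olfactory receptor genes had 1 call of 65, Olfr877, 10 at an unadjusted p under 0.05 and a median of -0.19. Of 209 Zfp genes 0 were called by limma and 27 had an unadjusted p under 0.05, with a median of -0.03 that was 0.18 at the same sum, -0.05 after quantile normalization and -0.09 after cyclic loess. Lysosome and autophagy (18 genes), apoptosis and DNA damage (12) and redox genes (21) had 0 calls by limma, with 3, 2 and 1 at an unadjusted p under 0.05 and medians of 0.16, 0.19 and -0.01, of which the last turned positive at the same sum and after quantile and loess normalization. Tceal8, of the Bex and Tceal family, was at 81.0, 40.9 and 13.5 FPKM in AmcKO and 18.1, 6.23 and 0 FPKM in WT, with overlap (log2 fold change 2.83, standard error 0.83, limma adjusted p = 0.141, or 0.0344 with the label number as a block). Its family had 3 genes tested, 0 called by limma and 2 at an unadjusted p under 0.05. Mitochondrially encoded genes had 0 members in the table.

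More genes were called between AmcKO and the oocyte knockout or the mutant than between AmcKO and WT, across libraries that also differed in label numbers and FPKM sums. GcKO and MUT libraries were numbered 1 to 3 and summed to 482314 to 684212 FPKM, against 883256 to 1226005 in AmcKO and WT, so that the genotype and these differences cannot be told apart. Some granulosa cell markers, picked after their values were seen, differed between MUT and AmcKO as well. Gja1, Inha and Hsd17b1 did not reach 1 FPKM in AmcKO or WT, so that limma did not test them. Gja1 was at 3.30, 2.35 and 4.26 FPKM in MUT and 0, 0 and 0.285 FPKM in AmcKO. Inha was at 5.45, 1.13 and 5.44 FPKM against 0, 0.797 and 0 FPKM, and Hsd17b1 at 2.06, 0.642 and 3.09 FPKM against 0. Esr2 went the other way, at 59.8, 39.4 and 45.2 FPKM in MUT against 78.7, 106 and 79.5 FPKM in AmcKO. Cyp19a1 overlapped, at 8.88, 9.49 and 13.4 FPKM in MUT against 10.9, 19.2 and 9.97 FPKM in AmcKO. Amh, Amhr2, Foxl2, Wt1 and Ihh were listed at 0 in both groups. The whole granulosa list summed to 87.9, 62.0 and 81.2 FPKM in MUT and to 94.7, 135 and 99.2 FPKM in AmcKO. The part of such markers in the counts was not tested. Against GcKO, 78 genes were lower and 549 higher in AmcKO, and against MUT 148 were lower and 595 higher. The filter used AmcKO and WT libraries alone, and took 10335 of the 11233 genes that reached 1 FPKM in any of the 12 libraries. Genes that reached it only in GcKO or MUT could not be called lower in AmcKO, so that the splits leave them out. These splits depend on the scaling: at the same sum they were 2473 lower and 130 higher against GcKO, and 2360 lower and 170 higher against MUT. After quantile normalization they were 101 lower and 170 higher against GcKO, and 206 lower and 325 higher against MUT. The counts against GcKO and MUT were 273 and 376 without AmcKO replicate 4, and 293 and 358 without AmcKO replicate 5. Abundant genes lay higher in AmcKO as deposited: at 1000 FPKM or more the median log2 fold change was 0.85 against GcKO and 0.78 against MUT. At the same sum these medians were 0.11 and 0.08, after quantile normalization 0.06 and 0.06, and after cyclic loess 0.02 and -0.04.

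Of the named genes not called against WT, Paip1 and Canx had the smallest adjusted p against GcKO and MUT, and they were picked after their values were seen. Paip1, a partner of poly(A)-binding protein in translation, was at 1686, 1655 and 1288 FPKM in AmcKO and 1604, 1371 and 1317 FPKM in WT, with overlap. It was at 274, 389 and 387 FPKM in GcKO and 456, 393 and 385 FPKM in MUT. The log2 fold change of AmcKO was 2.15 against GcKO (limma adjusted p = 4.3e-05) and 1.90 against MUT (limma adjusted p = 6.1e-05), and at the same sum 1.41 and 1.2. Canx was at 95.6, 117 and 136 FPKM in GcKO and 157.5, 141 and 129 FPKM in MUT, all below the lowest AmcKO value of 402 FPKM. Its log2 fold change was 1.92 against GcKO (limma adjusted p = 4.3e-05) and 1.62 against MUT (limma adjusted p = 9.1e-05), and 1.18 and 0.92 at the same sum. Both genes were called against both groups at the same sum, after quantile and loess normalization, and without each AmcKO library. Of 80 named genes tested, 21 were called against both groups and not against WT, each higher in AmcKO. At the same sum 10 of them were still called against both groups, and after quantile normalization 3. The naming rule favoured abundant genes, which lay higher in AmcKO as deposited, so that the count describes these picks alone. Over all genes tested, 6.07% were called against GcKO and 7.19% against MUT, and the share called against both was not counted.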

How the data were processed

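The authors sequenced RNA of 12 libraries, each of 20 oocytes. Per the labels and their processing notes, reads were aligned to mm10 with TopHat2 2.0.13 and expression was estimated with Cufflinks 2.2.1. The authors deposited 1 FPKM value per gene and library, for 24255 genes. The labels name different library kits in different places, and whether strand was kept is not given in the sources used here. The table also holds 18 columns of the authors' own tests, which hold the log2 fold change, the p-value and the q-value for 6 comparisons, and were not used. All FPKM columns matched a labelled library, and no pair held identical values.

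Genes that reached 1 FPKM in any of the 6 AmcKO and WT libraries were tested on log2(FPKM + 1) with limma 3.58.1 in R 4.3.3. All 12 libraries entered 1 fit with a variance trend and 8 residual degrees of freedom. AmcKO was compared with WT, GcKO and MUT, and p-values were adjusted by Benjamini-Hochberg over all genes tested and called under 0.05. Single measures of a library were compared by an exact permutation test, two-sided, whose smallest p is 0.1. Fits were tested on simulated data. Counts by chromosome and within windows around Dpagt1 and Amhr2 used the positions in the deposited table. The stretch of chromosome 9 and the printed gene coordinates came from GENCODE M21 (GRCm38), which matched 9890 symbols. Tables and figures were made with numpy 2.4.6, pandas 2.3.3 and matplotlib 3.10.9 in Python 3.11.15.

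Named genes were Dpagt1, Amhr2, Zp1, Zp2, Zp3, Gdf9, Bmp15, Kit and Gja4; in each direction the 8 largest changes and the 4 most abundant among called genes without overlap, the former with a mean of at least 5 FPKM in the higher group; up to 4 called or else the 2 most abundant members of each list; up to 6 genes apart from all groups; and called genes within 1 Mb of Dpagt1 or Amhr2. The other called genes, Esr2, Gata4, Tek, Alg9, Gja1, Inha, Hsd17b1 and Cyp19a1 were named after their values were seen. The members and lists were chosen with earlier results of these data known.

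Alternatives were a pseudocount of 0.1, no filter, a mean FPKM of at least 5, 3 scalings (same sum, quantile and median of ratios), no variance trend, the 6 AmcKO and WT libraries alone, a block for the label number, a minimum change of 2-fold, a threshold of 0.01 on the adjusted p, and leaving out each AmcKO and WT library. Cyclic loess normalization was added after seeing the data.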

Additional observations from a re-analysis of the deposited data

How the results depend on the processing

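Between AmcKO and WT, 26 genes were called, and 43 after cyclic loess normalization (chosen after seeing the data), 51 with a mean FPKM of at least 5, 16 without a filter, 50 with a pseudocount of 0.1, 8 with the 6 AmcKO and WT libraries alone and 9 at an adjusted p under 0.01. Leaving out 1 library gave 14 to 151. Quantile normalization gave 24, median of ratios 31, no variance trend 24 and a fold change over 2 gave 24. Against GcKO, the 627 calls became 2603 at the same sum, 271 after quantile normalization and 236 after cyclic loess, and 273 to 569 without 1 AmcKO library. Against MUT, the 743 calls became 2530 at the same sum, and 358 to 668 without 1 AmcKO library. The 1 gene apart from all groups became 6 at the same sum, 2 after quantile normalization, 4 after cyclic loess and 3 to 11 without 1 AmcKO library. Obox2 against MUT went from a log2 fold change of 1.2 to -0.023 after cyclic loess. Fewer genes were tested with the higher filter and fewer samples without a library; for the other settings the cause was not tested. The 26 calls were kept in 285 of 458 checks and were past the threshold no longer in 173, with 0 changes of sign.

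With the label number as a replicate block, 7 genes were called, 6 of them among the 26. Deviations of libraries of the same number correlated at 0.025, 0.015 and -0.034 for numbers 4, 5 and 6, so that the numbers were not taken to pair the samples. Low genes in WT are limited by depth, since 1 fragment there was worth 1.53 to 1.78 of that in AmcKO replicate 4.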
